A study of Bos taurus with 12 samples.

Results

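The genes described here mark epithelial cells and the epithelial character of stem cell colonies. They are 8 of the 19285 entries in a count table of bovine embryonic stem cells, found by matching the Entrez identifier of each entry to the symbols CDH1, EPCAM, ESRP1, ESRP2, ST14, SPINT1, SPINT2 and GRHL2. All 8 had an entry, and all 8 passed the filter on low counts that left 13920 genes for testing. The rule uses no measured value, although the set was proposed with earlier results of these data known.

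Poly-A RNA of the bovine embryonic stem cell line F7, of wild-type (WT) genotype, gave 12 sequenced libraries, 3 for every group, and the groups are named 1/7MC+Pyr+FGF, 1/7MC+Pyr, 1/7MC and MC. The title speaks of feeder layers at low density, of pyruvate and of basic FGF (recombinant, of the human sequence), a factor that keeps stem cells growing. The treatment field reads NC for MC and repeats the group name for the other groups. The labels give neither the meaning of MC, nor a dose, a time in culture or the species of the feeder cells, so the group names are kept as they stand. All 4 groups come from this 1 line. Nothing states that the replicates were separate cultures, so the p-values reflect library-to-library spread, which may be technical.

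Total counts ranged from 27373759 to 44440972 per library. The gene models behind the counts differed for MC replicates 2 and 3: of 61 shared Entrez identifiers, 53 carried differing counts in each of these 2 libraries and 0 in each of the other 10. The mean of MC replicates 2 and 3 over MC replicate 1 was 1.503 for CDH1, 1.21 for ESRP2, 1.17 for EPCAM, 1.15 for ST14, 1.03 for SPINT2, 1.00 for ESRP1, 0.914 for SPINT1 and 0.411 for GRHL2. Each test of the 8 genes against MC was therefore also run with MC replicate 1 standing alone for MC. Ratios between genes are averaged over all MC libraries. Reads of the pluripotency markers of the labelled cell type were found: of 10 listed genes, among them POU5F1, NANOG and LIN28A, 0 were without reads in any group. This gives no level for the single genes, since any read in a group counts. Their summed level was 3410.3 to 3860.1 CPM (counts scaled to 1000000 per library) in 1/7MC+Pyr+FGF, 4071 to 4349.5 in 1/7MC+Pyr, 2487 to 2819 in 1/7MC and 4065 to 4210.5 in MC.

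An epithelial cell holds to its neighbours through adherens junctions, in which CDH1 (E-cadherin) binds its like on the next cell and, inside, the catenins that anchor it to actin. Pluripotent stem cells grow as epithelial colonies and use the same cadherin, and loss of it is a textbook step of the epithelial-to-mesenchymal transition. EPCAM is a second adhesion molecule of such cells, ESRP1 and ESRP2 choose the epithelial exons of many transcripts, ST14 (matriptase) is a protease of the cell surface held in check by the inhibitors SPINT1 and SPINT2, and GRHL2 is a transcription factor that, in mouse and human, activates CDH1 and other epithelial genes.

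In CPM scaled by trimmed-mean factors (TMM), 6 of the 8 genes were highest in MC in every library. SPINT2 was highest in 1/7MC, and GRHL2 stood near the detection limit throughout. The share of all genes that were highest in every MC library is not given here, so this is a description.

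**Figure D1:**
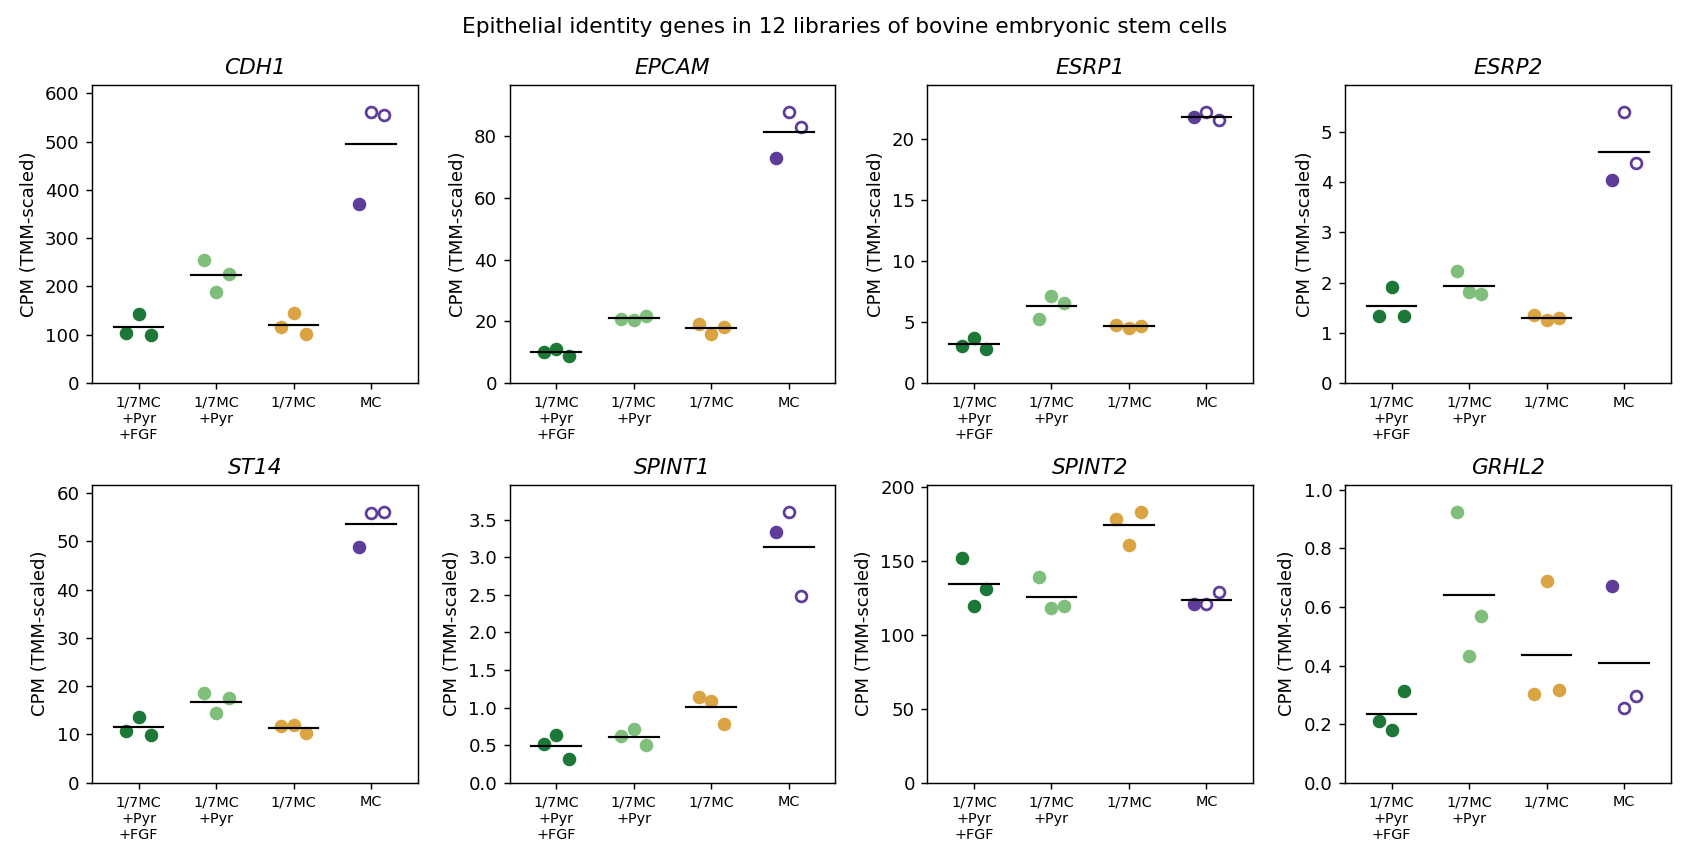
Level of each epithelial identity gene in 12 libraries, in CPM (scaled by TMM) on a linear axis from 0, with 1 point per library, the group mean as a black line and MC replicates 2 and 3 as open circles. CDH1, EPCAM, ESRP1, ESRP2, ST14 and SPINT1 lie higher in every MC library than in any of the other 9, SPINT2 is highest in the 1/7MC libraries, and GRHL2 stays under 1 CPM.

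Of the adhesion genes, CDH1 (Entrez 282637) stood at 103, 144 and 100.2 CPM in replicates 1 to 3 of 1/7MC+Pyr+FGF, at 254, 188 and 226 CPM in 1/7MC+Pyr, at 115, 146 and 101 CPM in 1/7MC, and at 372, 561 and 555 CPM in MC. The group means were 116 ± 24.3 CPM in 1/7MC+Pyr+FGF, 223 ± 33.1 in 1/7MC+Pyr, 121 ± 22.8 in 1/7MC and 496 ± 108 in MC (SD, n = 3 each). The libraries of 1/7MC+Pyr+FGF and 1/7MC overlapped, those of 1/7MC+Pyr lay above both, and those of MC lay above all others. MC replicate 1 was the lowest of the MC libraries and still exceeded the highest 1/7MC+Pyr library.

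EPCAM (Entrez 514039), a glycoprotein of epithelial cells and of pluripotent stem cells, stood at 10.2, 10.9 and 8.70 CPM in 1/7MC+Pyr+FGF, at 20.6, 20.3 and 21.8 CPM in 1/7MC+Pyr, at 19.0, 16.0 and 18.0 CPM in 1/7MC, and at 73.0, 87.8 and 82.8 CPM in MC. Its means were 9.94 ± 1.13, 20.9 ± 0.803, 17.7 ± 1.53 and 81.2 ± 7.54 CPM in 1/7MC+Pyr+FGF, 1/7MC+Pyr, 1/7MC and MC (SD, n = 3 each). No 2 groups overlapped for EPCAM, although 1/7MC+Pyr and 1/7MC differed by 0.24 ± 0.11 on the log2 scale, which missed the threshold (adjusted p = 0.163). Per unit of length, from the deposited signal after each library was brought to an equal sum, EPCAM was the scarcer of the adhesion genes in every group: its level was 0.137 ± 0.0178 of that of CDH1 in 1/7MC+Pyr+FGF, 0.149 ± 0.0209 in 1/7MC+Pyr, 0.238 ± 0.0570 in 1/7MC and 0.263 ± 0.0401 in MC (SD, n = 3 each). Within MC this ratio was 0.309 in replicate 1, 0.246 in replicate 2 and 0.235 in replicate 3.

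Of the splicing regulators, ESRP1 (Entrez 538640) stood at 3.04, 3.69 and 2.78 CPM in 1/7MC+Pyr+FGF, at 5.24, 7.10 and 6.53 CPM in 1/7MC+Pyr, at 4.76, 4.51 and 4.71 CPM in 1/7MC, and at 21.8, 22.2 and 21.5 CPM in MC. Its 3 MC libraries had an SD of 0.349 CPM (n = 3), and the order of the groups was that of EPCAM, with no overlap. ESRP2 (Entrez 510878), its paralog, was lower, at 1.34, 1.91 and 1.33 CPM in 1/7MC+Pyr+FGF, 2.23, 1.81 and 1.78 CPM in 1/7MC+Pyr, 1.35, 1.25 and 1.30 CPM in 1/7MC, and 4.03, 5.39 and 4.38 CPM in MC. For ESRP2 the libraries of 1/7MC+Pyr+FGF overlapped those of 1/7MC and of 1/7MC+Pyr, and none of the 3 groups differed from another of the 3 past the threshold. It rests on few reads, 40 to 169 counts per library, against 98 to 778 for ESRP1.

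ST14 (Entrez 767617), the membrane protease matriptase, stood at 10.7, 13.6 and 9.98 CPM in 1/7MC+Pyr+FGF, at 18.5, 14.4 and 17.5 CPM in 1/7MC+Pyr, at 11.8, 11.9 and 10.2 CPM in 1/7MC, and at 48.7, 55.8 and 56.1 CPM in MC. The libraries of 1/7MC+Pyr+FGF and of 1/7MC overlapped, and 1/7MC+Pyr lay above both. SPINT1 (Entrez 534040), the inhibitor also called HAI-1, stood at 0.515, 0.635 and 0.312 CPM in 1/7MC+Pyr+FGF, at 0.617, 0.719 and 0.497 CPM in 1/7MC+Pyr, at 1.15, 1.09 and 0.780 CPM in 1/7MC, and at 3.33, 3.61 and 2.49 CPM in MC. Its lowest libraries were those of 1/7MC+Pyr+FGF and 1/7MC+Pyr, which overlapped, with 11 to 25 counts each, against 27 to 41 in 1/7MC and 67 to 119 in MC.

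SPINT2 (Entrez 507484), the inhibitor also called HAI-2, had another order. It stood at 152, 119 and 131 CPM in 1/7MC+Pyr+FGF, at 139, 118 and 119.7 CPM in 1/7MC+Pyr, at 178, 161 and 183 CPM in 1/7MC, and at 121, 121 and 129 CPM in MC. All 3 libraries of 1/7MC lay above the other 9 libraries, and the other 3 groups overlapped. Its highest and lowest group means were 174 ± 11.7 CPM in 1/7MC and 123 ± 4.52 CPM in MC (SD, n = 3 each).

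GRHL2 (Entrez 519918) held 6 to 27 counts per library. It stood at 0.211, 0.182 and 0.312 CPM in 1/7MC+Pyr+FGF, at 0.925, 0.431 and 0.568 CPM in 1/7MC+Pyr, at 0.304, 0.690 and 0.318 CPM in 1/7MC, and at 0.672, 0.255 and 0.297 CPM in MC. The libraries of 1/7MC+Pyr+FGF lay below those of 1/7MC+Pyr, and every other pair of groups overlapped. No comparison of GRHL2 passed the threshold. Its low counts limit what could be detected: the SE of its log2 fold changes was 0.47 to 0.53 in the 6 comparisons.

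In 1/7MC against MC, 6 of the 8 genes fell, 1 rose and 1 did not pass the test. The falls left EPCAM, ESRP1 and ST14 at 21.7%, 21.3% and 21.1% of their MC level, CDH1 at 24.3%, ESRP2 at 28.3% and SPINT1 at 31.9%, while SPINT2 rose to 141%. In bulk RNA, fewer cells of a type and less RNA per cell cannot be told apart. The log2 fold changes, 1/7MC over MC, were -2.20 ± 0.12 for EPCAM (SE; adjusted p = 4.52e-08), -2.24 ± 0.14 for ST14 (adjusted p = 1.95e-07), -2.23 ± 0.14 for ESRP1 (adjusted p = 1.97e-07), -2.04 ± 0.20 for CDH1 (adjusted p = 6.41e-06), -1.82 ± 0.20 for ESRP2 (adjusted p = 1.73e-05) and -1.65 ± 0.27 for SPINT1 (adjusted p = 0.000367). SPINT2 had 0.50 ± 0.10 (adjusted p = 0.00195), and GRHL2 had 0.09 ± 0.49 (adjusted p = 0.898). These are edgeR quasi-likelihood tests with Benjamini-Hochberg adjustment over all genes, as are the other adjusted p-values given, and a gene counts as changed at an adjusted p under 0.05. Of all 13920 genes tested, 21.3% fell and 23.7% rose, and the median log2 fold change was 0.0048, against -1.93 over the 8 genes.

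With MC replicate 1 standing alone for MC the same 7 genes were called in the same directions, beside 9.96% of 14361 genes that fell and 14.0% that rose. CDH1 then had -1.61 ± 0.23 (adjusted p = 0.000175), EPCAM -2.04 ± 0.15, ESRP1 -2.22 ± 0.19, ESRP2 -1.62 ± 0.30, ST14 -2.09 ± 0.19 and SPINT1 -1.72 ± 0.38. The adjusted p of SPINT2 was 0.0297 at 0.54 ± 0.17. GRHL2 changed sign, to -0.58 ± 0.62 (adjusted p = 0.557). No call among the 8 changed when any of the 12 libraries was left out in turn.

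**Figure D2:**
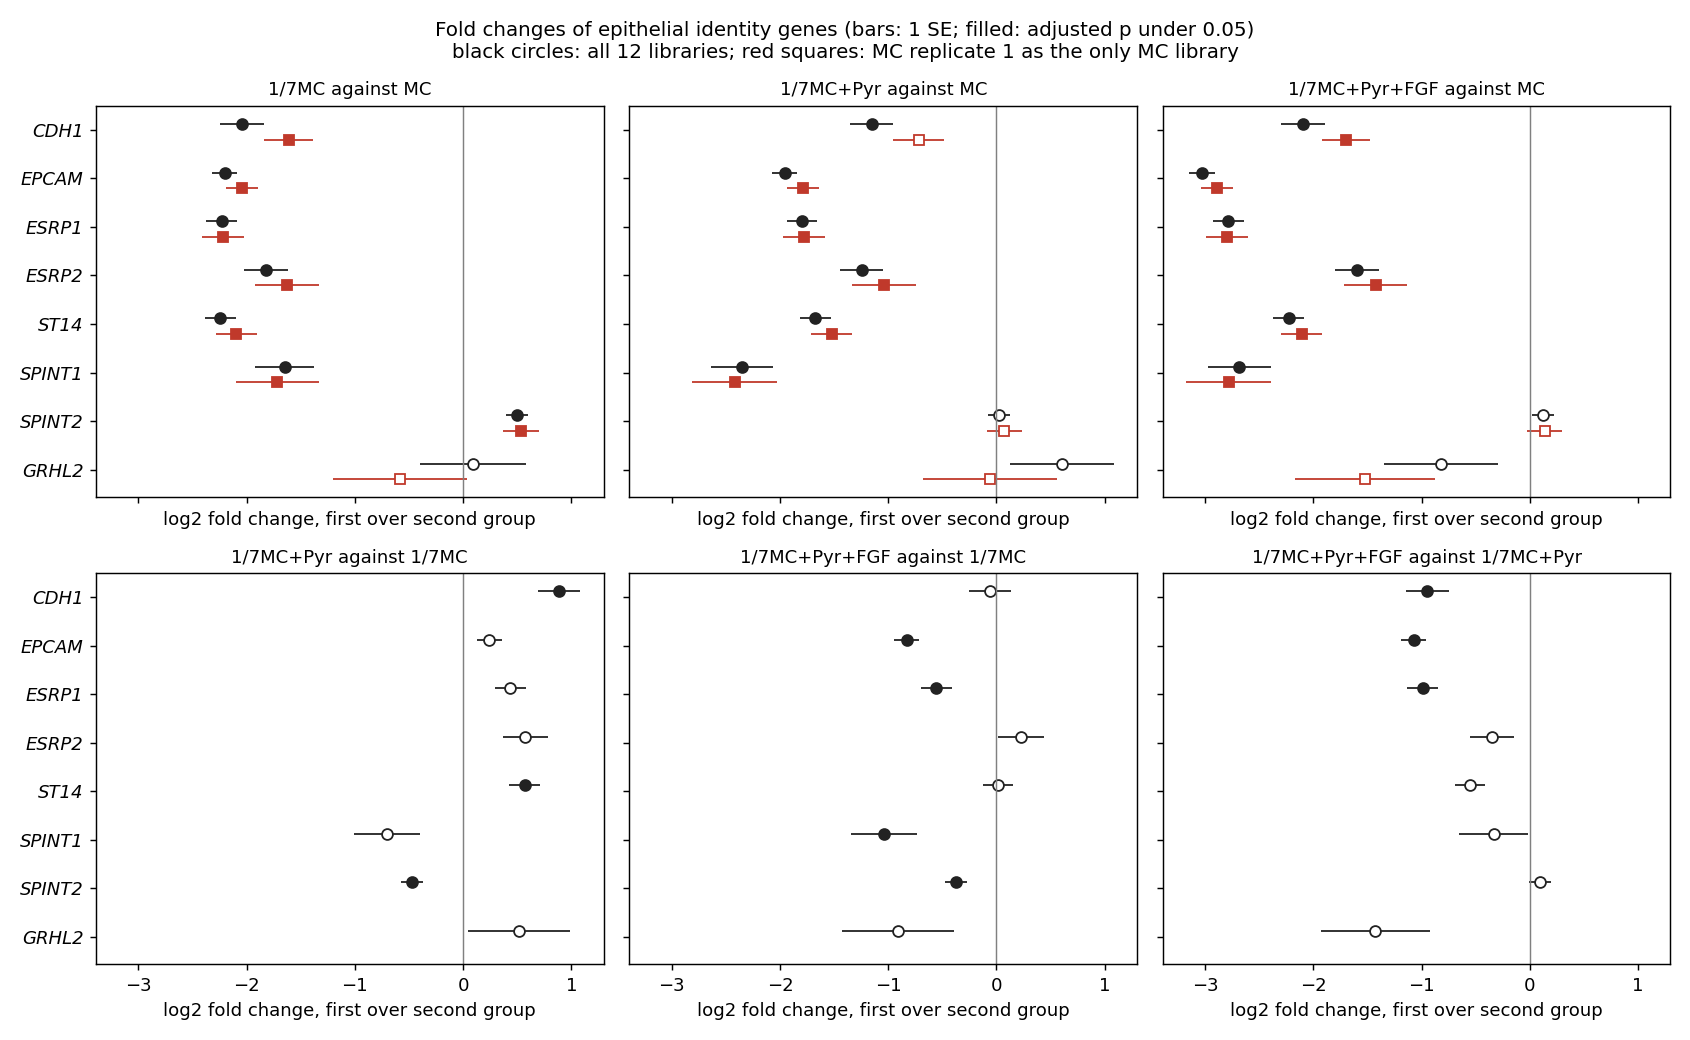
Log2 fold change of each epithelial identity gene in the 6 pairs of groups, the group named first over the group named second, with 1 SE as the bar and filled symbols for an adjusted p under 0.05. Black circles use all 12 libraries and red squares, in the comparisons with MC, use MC replicate 1 as the only MC library. EPCAM lies at -2.20, -1.96 and -3.03 in 1/7MC, 1/7MC+Pyr and 1/7MC+Pyr+FGF against MC, while SPINT2 lies between -0.47 and 0.54 in every panel.

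Cells in 1/7MC+Pyr against MC showed the same 6 genes lower, with CDH1 the nearest to its MC level. CDH1 stood at 45.0% of MC, ESRP2 at 42.1%, ST14 at 31.4%, ESRP1 at 28.8%, EPCAM at 25.7% and SPINT1 at 19.6%. The log2 fold changes ran from -1.15 ± 0.20 for CDH1 (adjusted p = 0.00103) to -2.35 ± 0.29 for SPINT1 (adjusted p = 7.92e-05), SPINT2 had 0.02 ± 0.10 (adjusted p = 0.882) and GRHL2 0.61 ± 0.48 (adjusted p = 0.367). So 6 fell and 0 rose, among 13.2% of all genes that fell and 15.2% that rose, and the median was -1.46 over the 8 genes and -0.0086 over all genes. With MC replicate 1 standing alone for MC 5 fell, among 3.15% of genes that fell and 6.56% that rose. The call of CDH1 was then lost at -0.72 ± 0.23 (adjusted p = 0.0733), and the fold changes of the 5 that kept it were -1.79 ± 0.15 for EPCAM, -1.78 ± 0.20 for ESRP1, -1.52 ± 0.19 for ST14, -1.04 ± 0.29 for ESRP2 and -2.42 ± 0.40 for SPINT1.

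Cells in 1/7MC+Pyr+FGF held the lowest EPCAM and ESRP1 of the 4 groups. Against MC, EPCAM stood at 12.2%, ESRP1 at 14.5%, SPINT1 at 15.6%, ST14 at 21.4%, CDH1 at 23.3% and ESRP2 at 33.1%. The log2 fold changes were -3.03 ± 0.12 for EPCAM (adjusted p = 2.46e-08), -2.78 ± 0.15 for ESRP1 (adjusted p = 1.36e-07), -2.68 ± 0.29 for SPINT1, -2.23 ± 0.14 for ST14, -2.0997 ± 0.20 for CDH1 and -1.60 ± 0.20 for ESRP2 (the largest adjusted p of these 6 was 0.000103). SPINT2 had 0.12 ± 0.10 (adjusted p = 0.397) and GRHL2 -0.82 ± 0.53 (adjusted p = 0.252). With MC replicate 1 standing alone for MC, GRHL2 had -1.52 ± 0.64. Of all genes 15.4% fell and 17.1% rose, with a median of 0.040 against -2.16 over the 8 genes. The 6 calls held with MC replicate 1 standing alone for MC, where 6.13% of genes fell and 5.86% rose, with CDH1 at -1.70 ± 0.23 (adjusted p = 0.000283) and EPCAM at -2.89 ± 0.15. The comparisons with MC share the MC libraries, so their agreement is not independent.

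With pyruvate added, in 1/7MC+Pyr against 1/7MC, CDH1 rose to 185% and ST14 to 148% of the 1/7MC level, and SPINT2 fell to 72.1%. The log2 fold changes were 0.89 ± 0.20 for CDH1 (adjusted p = 0.00825), 0.57 ± 0.14 for ST14 (adjusted p = 0.0142) and -0.47 ± 0.10 for SPINT2 (adjusted p = 0.00770). The other 5 did not pass: ESRP1 had 0.44 ± 0.14 (adjusted p = 0.0507), ESRP2 0.58 ± 0.21 (adjusted p = 0.0772), EPCAM 0.24 ± 0.11 (adjusted p = 0.163), SPINT1 -0.70 ± 0.30 (adjusted p = 0.132) and GRHL2 0.52 ± 0.47 (adjusted p = 0.506). Thus 2 of 8 rose and 1 fell, beside 8.08% of all genes that rose and 10.1% that fell. The libraries of 1/7MC+Pyr lay above those of 1/7MC for CDH1, EPCAM, ESRP1, ESRP2 and ST14. They lay below for SPINT1 and SPINT2 and overlapped for GRHL2. The share of all genes without overlap is not given here, so this is a description. Of the genes without overlap, only CDH1, ST14 and SPINT2 passed the test.

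The calls of CDH1 and SPINT2 in that comparison held without any of the 12 libraries. That of ST14 did not: its adjusted p was 0.0504 without 1/7MC+Pyr replicate 1, 0.0581 without 1/7MC+Pyr replicate 3 and 0.0691 without 1/7MC replicate 3, at log2 fold changes of 0.49, 0.54 and 0.50. ESRP1 passed without 1/7MC+Pyr replicate 1 (adjusted p = 0.0195), without 1/7MC+Pyr+FGF replicate 2 (adjusted p = 0.0362) and without MC replicate 1 (adjusted p = 0.0459). The size of its fold change was 0.44 with all 12 libraries and 0.55, 0.44 and 0.44 in these 3 fits. ESRP1 also passed with DESeq2 in place of edgeR (adjusted p = 0.0231), with DESeq2 size factors (adjusted p = 0.0481) and with a stricter filter on low counts (adjusted p = 0.0499).

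Adding FGF, in 1/7MC+Pyr+FGF against 1/7MC+Pyr, was followed by falls of 3 of the 8 genes in a comparison in which few genes changed: 2.12% of all genes fell and 0.639% rose. EPCAM stood at 47.6% of its 1/7MC+Pyr level (log2 fold change -1.07 ± 0.11, adjusted p = 0.000593), ESRP1 at 50.3% (-0.99 ± 0.14, adjusted p = 0.00466) and CDH1 at 51.9% (-0.95 ± 0.20, adjusted p = 0.0261). None rose. ST14 had -0.55 ± 0.14 (adjusted p = 0.0568), ESRP2 -0.35 ± 0.21 (adjusted p = 0.366), SPINT1 -0.33 ± 0.32 (adjusted p = 0.582), SPINT2 0.10 ± 0.10 (adjusted p = 0.631) and GRHL2 -1.43 ± 0.51 (adjusted p = 0.157). The median was -0.75 over the 8 genes and 0.0091 over all genes. Both this comparison and 1/7MC+Pyr against 1/7MC use the 1/7MC+Pyr libraries, so the rise and the fall of CDH1 are not independent. Libraries of 1/7MC+Pyr+FGF lay below those of 1/7MC+Pyr, without overlap, for CDH1, EPCAM, ESRP1, ST14 and GRHL2. This is a description without the share over all genes, and ST14 and GRHL2 did not pass the test with all 12 libraries.

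The calls of EPCAM and ESRP1 under FGF held without any of the 12 libraries, while that of CDH1 was lost without 1/7MC+Pyr+FGF replicate 1 (adjusted p = 0.123), 1/7MC+Pyr+FGF replicate 3 (adjusted p = 0.0925), 1/7MC+Pyr replicate 1 (adjusted p = 0.125) or 1/7MC+Pyr replicate 3 (adjusted p = 0.0895). ST14 passed without 1/7MC+Pyr+FGF replicate 2 (adjusted p = 0.0323), without 1/7MC+Pyr replicate 2 (adjusted p = 0.0370), without MC replicate 1 (adjusted p = 0.0305) with MC replicate 1 standing alone for MC (adjusted p = 0.0459) and with DESeq2 in place of edgeR (adjusted p = 0.00930).

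With pyruvate and FGF both added, in 1/7MC+Pyr+FGF against 1/7MC, 4 of the 8 genes fell and 0 rose, beside 15.7% of all genes that fell and 11.9% that rose. EPCAM stood at 56.3% of its 1/7MC level (-0.83 ± 0.11, adjusted p = 0.000250), ESRP1 at 68.0% (-0.56 ± 0.14, adjusted p = 0.0138), SPINT1 at 48.7% (-1.04 ± 0.30, adjusted p = 0.0238) and SPINT2 at 77.0% (-0.38 ± 0.10, adjusted p = 0.0175). CDH1 had -0.06 ± 0.20 (adjusted p = 0.858), ST14 0.01 ± 0.14 (adjusted p = 0.955), ESRP2 0.23 ± 0.21 (adjusted p = 0.462) and GRHL2 -0.91 ± 0.52 (adjusted p = 0.219). The sign of CDH1 turned without 1/7MC+Pyr+FGF replicate 1, 1/7MC+Pyr+FGF replicate 3 or 1/7MC replicate 2, and that of ST14 without 1/7MC+Pyr+FGF replicate 2 or 1/7MC replicate 3.

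For that comparison the call of EPCAM held without any library. ESRP1 lost its call without 1/7MC+Pyr+FGF replicate 3 (adjusted p = 0.0525). SPINT1 lost it without 1/7MC+Pyr+FGF replicate 1 or 3, or without 1/7MC replicate 1 or 2 (adjusted p of 0.0551 to 0.0791), and SPINT2 without 1/7MC+Pyr+FGF replicate 2 or 3, or without 1/7MC replicate 1 or 3 (adjusted p of 0.0561 to 0.0733).

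Matriptase and its inhibitors can be set against each other per unit of length within a library, which cancels the library's depth. The ratio of ST14 to SPINT2 was 0.0533 ± 0.0146 in 1/7MC+Pyr+FGF, 0.0820 ± 0.00730 in 1/7MC+Pyr, 0.0401 ± 0.00564 in 1/7MC and 0.266 ± 0.0177 in MC (SD, n = 3 each). So SPINT2 RNA exceeded ST14 RNA in every library, and the ratio was at most 0.0894 outside MC and at least 0.248 within it. The ratio of SPINT1 to SPINT2 was 0.00216 ± 0.000872 in 1/7MC+Pyr+FGF, 0.00286 ± 0.000610 in 1/7MC+Pyr, 0.00339 ± 0.000794 in 1/7MC and 0.0149 ± 0.00323 in MC, so SPINT2 made up nearly all of the inhibitor RNA in each group.

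ST14 over SPINT1 was 26.0 ± 6.61 in 1/7MC+Pyr+FGF, 29.9 ± 8.07 in 1/7MC+Pyr, 12.04 ± 1.54 in 1/7MC and 18.4 ± 4.58 in MC. The 1/7MC+Pyr libraries (21.1 to 36.9) and the MC libraries (15.4 to 23.7) overlapped, and those of 1/7MC (10.8 to 13.8) lay below every other library. The ratio of ESRP1 to ESRP2 was 2.18 ± 0.179 in 1/7MC+Pyr+FGF, 3.45 ± 0.877 in 1/7MC+Pyr, 3.73 ± 0.0568 in 1/7MC and 5.00 ± 0.674 in MC. ESRP1 was the more abundant splicing regulator in every library, and its lead was smallest in the 3 libraries with FGF (2.01 to 2.37), which lay below every other library. These ratios are descriptions without a test.

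**Figure D3:**
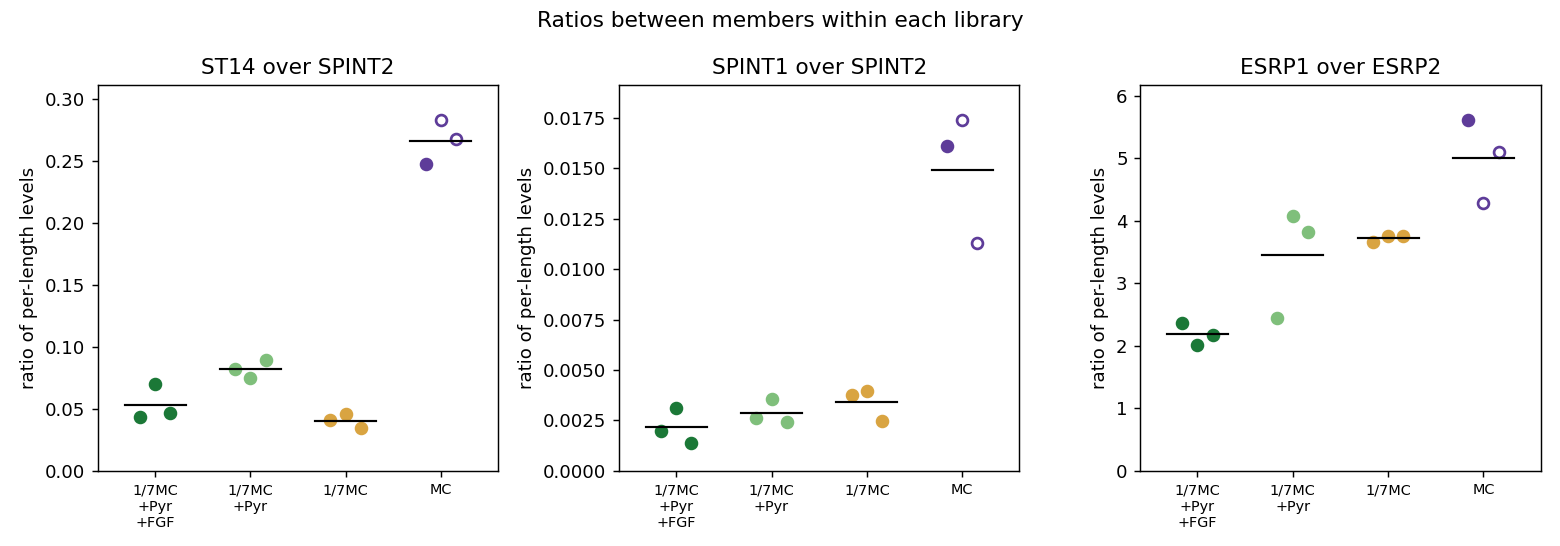
Ratios of per-length levels within each library for the protease ST14 over its inhibitor SPINT2, for the inhibitors SPINT1 over SPINT2 and for the splicing regulators ESRP1 over ESRP2, with 1 point per library, the group mean as a black line and MC replicates 2 and 3 as open circles. ST14 over SPINT2 averages 0.266 in MC and at most 0.0820 in the other groups, and ESRP1 over ESRP2 averages 2.18 in 1/7MC+Pyr+FGF, the lowest of the 4 groups.

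The genes around each member were read from lists chosen by function. For these genes values against MC use all MC libraries, and each call named for 1/7MC against MC also passed, in the same direction, with MC replicate 1 alone unless a loss is stated. Of 12 partners of CDH1 in the adherens junction, 5 fell and 3 rose in 1/7MC against MC, with a median of -0.07, beside 21.3% of all genes that fell, 23.7% that rose and a median of 0.0048 over all genes. Alpha-catenin (CTNNA1) averaged 662 ± 18.8 CPM in 1/7MC and 687 ± 36.5 CPM in MC (SD, n = 3 each), a log2 fold change of -0.05 ± 0.09 (adjusted p = 0.648), and p120-catenin (CTNND1), itself a splicing target of the ESRP proteins, had -0.09 ± 0.12 (adjusted p = 0.596). Beta-catenin (CTNNB1) rose by 0.31 ± 0.08 (adjusted p = 0.00727), a call lost with MC replicate 1 alone (0.40 ± 0.14, adjusted p = 0.0642). Plakoglobin (JUP), the catenin shared with desmosomes, rose by 0.58 ± 0.10 and PLEKHA7, a scaffold of the apical junction, by 0.79 ± 0.12, both also against MC replicate 1 alone. VCL (vinculin), which links catenins to actin, fell by 0.89 ± 0.15.

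NECTIN1, an immunoglobulin-type adhesion molecule of the same junction, fell by 2.096 ± 0.26 in 1/7MC against MC. It stood at 40.9, 47.7 and 41.7 CPM in 1/7MC and at 104, 227 and 226 CPM in MC, so MC replicate 1 lay apart from the other MC libraries. Against MC replicate 1 alone the change was -1.25 ± 0.20 (adjusted p = 0.000503). With MC replicate 1 standing alone for MC, 2 of the 12 partners fell and 2 rose. Among these partners 1 rose and 3 fell in 1/7MC+Pyr against 1/7MC, with VCL up by 0.60 ± 0.15 and PLEKHA7 and JUP changed by -0.61 ± 0.12 and -0.39 ± 0.10. Between 1/7MC+Pyr+FGF and 1/7MC+Pyr edgeR called 0 of the 12 in either direction.

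Of 22 polarity and membrane genes of epithelia 21 could be tested, of which 13 fell and 2 rose in 1/7MC against MC (10 and 2 with MC replicate 1 alone), with a median of -0.65. AP1M2, an adaptor subunit that sorts proteins to the basolateral membrane, fell by 2.07 ± 0.55 on 21 counts in 1/7MC and 83 in MC, a call lost with MC replicate 1 alone (adjusted p = 0.0730). BSPRY fell by 1.69 ± 0.35, and PATJ, a scaffold of the Crumbs polarity complex, by 1.66 ± 0.12. PATJ rose by 0.74 ± 0.12 in 1/7MC+Pyr against 1/7MC (adjusted p = 0.00113), where 5 of the 21 rose and 3 fell. No polarity gene was called by edgeR (0 of the 21) in 1/7MC+Pyr+FGF against 1/7MC+Pyr, and PATJ had -0.44 ± 0.12 (adjusted p = 0.0709).

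Of 14 genes linked to matriptase and to the growth factor HGF, which matriptase can activate, 10 could be tested. PRSS8 (prostasin), the protease that works with matriptase in epithelia, could not: it held 1 count over the 3 libraries of 1/7MC+Pyr+FGF, 6 in 1/7MC+Pyr, 3 in 1/7MC and 9 in MC. In 1/7MC against MC 5 fell and 3 rose, with a median of -0.60 (5 and 1 with MC replicate 1 alone). F2RL1, a receptor cut and activated by proteases such as matriptase, fell by 2.00 ± 0.14, SCNN1A, a subunit of the epithelial sodium channel, by 1.60 ± 0.18, and MET, the HGF receptor, by 1.09 ± 0.18. MST1, the HGF-like ligand, rose by 1.32 ± 0.48 on 83 counts in 1/7MC and 30 in MC, a call lost with MC replicate 1 alone (adjusted p = 0.105).

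F2RL1 stood at 136, 180.0 and 126 CPM in 1/7MC+Pyr+FGF, at 172, 135 and 174 CPM in 1/7MC+Pyr, at 54.0, 61.4 and 54.1 CPM in 1/7MC, and at 209.7, 230.1 and 239 CPM in MC. The 1/7MC libraries were the lowest 3 of the 12 and did not overlap those of 1/7MC+Pyr, against which F2RL1 rose by 1.51 ± 0.14 with pyruvate (adjusted p = 2.24e-05). In that comparison 3 of the 10 genes rose and 1 fell. MET and SCNN1A did not pass, at 0.10 ± 0.19 and 0.29 ± 0.18. With FGF, in 1/7MC+Pyr+FGF against 1/7MC+Pyr, 3 fell and 0 rose, SCNN1A among them with -0.82 ± 0.18 (adjusted p = 0.0341).

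GRHL2 has the paralogs GRHL1 and GRHL3, which stand with 12 other epithelial transcription factors in a list of which 11 could be tested. Per unit of length GRHL2 was the scarcest of the family in every group, at 0.0534 ± 0.0158 in 1/7MC+Pyr+FGF, 0.158 ± 0.0661 in 1/7MC+Pyr, 0.108 ± 0.0592 in 1/7MC and 0.0958 ± 0.0599 in MC. The group means of GRHL1 ran from 1.06 in 1/7MC to 1.96 in MC and those of GRHL3 from 0.490 in 1/7MC+Pyr to 0.785 in MC. GRHL1 fell by 0.98 ± 0.22 in 1/7MC against MC (adjusted p = 0.00287) and GRHL3 by 0.50 ± 0.19 (adjusted p = 0.0442). Neither call held with MC replicate 1 alone (adjusted p = 0.110 for GRHL1 and 0.239 for GRHL3).

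Over the 11 factors 7 fell and 2 rose in 1/7MC against MC, with a median of -0.67 (3 and 1 with MC replicate 1 alone). OVOL2, a repressor of mesenchymal genes, fell by 1.78 ± 0.29. TP63, the master factor of stratified epithelia, rose by 2.35 ± 0.59 on 115 counts in 1/7MC and 20 in MC, and TFAP2A, a factor of ectoderm, rose by 1.73 ± 0.35. The call of TFAP2A was lost with MC replicate 1 alone (adjusted p = 0.0829). With pyruvate, in 1/7MC+Pyr against 1/7MC, 2 of the 11 rose and 1 fell, OVOL2 with a rise of 1.08 ± 0.30 (adjusted p = 0.0244) and TFAP2A with a fall of 1.70 ± 0.35 (adjusted p = 0.00518). OVOL2 had -0.74 ± 0.29 in 1/7MC+Pyr+FGF against 1/7MC+Pyr (adjusted p = 0.193).

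Of 14 mesenchymal counterparts 10 rose and 1 fell in 1/7MC against MC, with a median of 1.08 (9 and 0 with MC replicate 1 alone). SNAI2 (SLUG), a repressor of CDH1, stood at 13.8, 14.1 and 14.7 CPM in 1/7MC and at 1.54, 1.53 and 1.37 CPM in MC, a rise of 3.25 ± 0.16 on the log2 scale (adjusted p = 2.88e-08). TWIST1, another inducer of the mesenchymal state, rose by 2.59 ± 0.12, S100A4 by 2.22 ± 0.23 and fibronectin (FN1) by 1.66 ± 0.26. Where CDH1 rose, in 1/7MC+Pyr against 1/7MC, 1 of the 14 rose and 3 fell, with a median of -0.11. Of all genes 8.08% rose and 10.1% fell. SNAI2 had 0.28 ± 0.14 (adjusted p = 0.184), TWIST1 fell by 1.55 ± 0.12 and FN1 rose by 1.04 ± 0.25. Where CDH1 and EPCAM fell, in 1/7MC+Pyr+FGF against 1/7MC+Pyr, SNAI2 fell by 1.33 ± 0.14 (adjusted p = 0.000593) and TWIST1 rose by 0.69 ± 0.11 (adjusted p = 0.00891), and no other of the 14 passed.

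**Figure D4:**
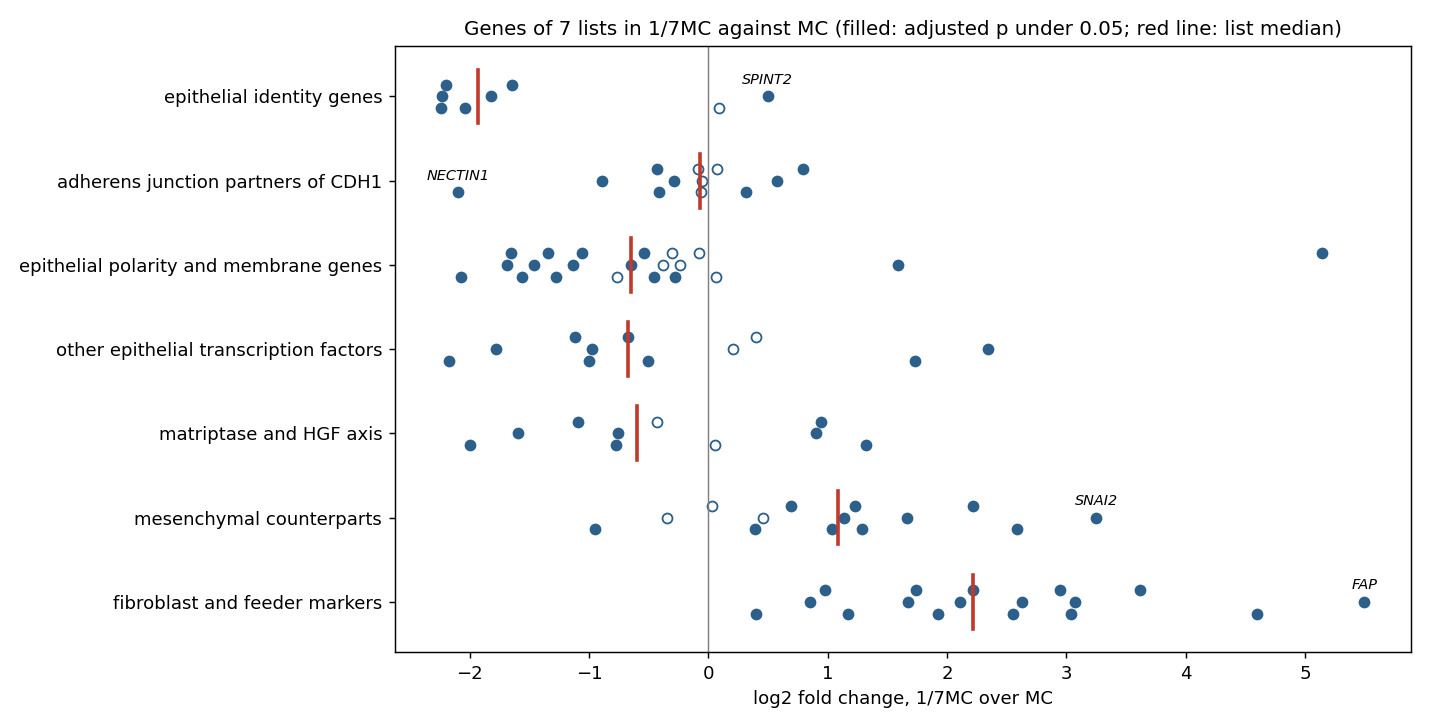
Log2 fold change, 1/7MC over MC, of each tested gene in the epithelial identity genes and in 6 lists of related or opposing genes, with filled circles for an adjusted p under 0.05 and the list median as a red line. The epithelial identity genes have the lowest median, -1.93, and the fibroblast and feeder markers the highest, 2.22.

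Genes listed as markers of other cells moved with these comparisons. All 17 fibroblast and feeder markers rose in 1/7MC against MC, also with MC replicate 1 alone, with a median of 2.22, and none was at 0 in any group. Their summed level was 11264.5 to 15963 CPM in 1/7MC+Pyr+FGF, 16208 to 26750.3 in 1/7MC+Pyr, 13872 to 20078 in 1/7MC and 3739.6 to 3897 in MC. FAP rose by 5.499 ± 0.44, POSTN by 4.60 ± 0.16, COL1A2 by 3.61 ± 0.22 and COL3A1 by 3.08 ± 0.21. S100A4 stands both in this list and among the mesenchymal counterparts. Of the 17, 16 rose and 0 fell in 1/7MC+Pyr against MC, and in 1/7MC+Pyr+FGF against MC also 16 and 0 (14 and 12 with MC replicate 1 alone). Whether the RNA of these markers came from fibroblasts or feeder cells was not tested. The part of such cells in the falls of CDH1, EPCAM, ESRP1, ESRP2, ST14 and SPINT1 against MC was not tested.

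The same markers were counted in the comparisons without MC, and their part in those results was not tested either. In 1/7MC+Pyr against 1/7MC, where CDH1 and ST14 rose, 2 of the 17 rose and 7 fell, the median was -0.12, and the summed levels of the groups overlapped. In 1/7MC+Pyr+FGF against 1/7MC+Pyr, where EPCAM, ESRP1 and CDH1 fell, 0 rose and 4 fell. The summed level of every 1/7MC+Pyr+FGF library (at most 15963 CPM) lay below that of every 1/7MC+Pyr library (at least 16208 CPM). In 1/7MC+Pyr+FGF against 1/7MC, where EPCAM, ESRP1, SPINT1 and SPINT2 fell, 1 rose and 8 fell.

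Of 10 pluripotency markers 5 were lower and 0 higher in 1/7MC against MC (median -0.51, and -0.54 with MC replicate 1 alone). In 1/7MC+Pyr against 1/7MC 6 were higher and 0 lower (median 0.62). In 1/7MC+Pyr+FGF against 1/7MC+Pyr 0 were higher and 1 lower (median -0.0060). Their summed level in 1/7MC+Pyr overlapped that of MC. This sum weighs abundant genes most: DNMT3B averaged 1876 CPM in 1/7MC+Pyr and 1698 in MC, and LIN28A 430 and 585. EPCAM stood at 25.7% and ESRP1 at 28.8% of MC in 1/7MC+Pyr. The part of the number of stem cells in the epithelial falls was not tested. LIN28A had -0.90 ± 0.10, SALL4 -0.74 ± 0.12, DNMT3B -0.69 ± 0.09 and PRDM14 -0.65 ± 0.09 in 1/7MC against MC, each of them smaller than the falls of the 6 epithelial genes; the difference between the genes was not tested.

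Of 8 testable trophectoderm markers, the outer epithelium of the embryo, 5 fell and 1 rose in 1/7MC against MC: the keratins KRT7 and KRT8 fell by 2.28 ± 0.15 and 1.23 ± 0.12 and TFAP2C, which also stands among the epithelial transcription factors, by 1.12 ± 0.16, while GATA3 rose by 3.93 ± 0.32. CDX2, HAND1, ELF5 and IFNT2 were too low to test. Of 3 testable hypoblast markers 2 rose and 0 fell, SPARC and APOA1 by 1.43 ± 0.13 and 0.66 ± 0.09. GATA6 did not pass, at 0.37 ± 0.30 (adjusted p = 0.340). GATA4, SOX17, FOXA2, HNF4A and AFP did not pass the filter on low counts with all 12 libraries. Of these, FOXA2 averaged 2.37 CPM in MC and 0 in 1/7MC, a difference that was not tested. Of 7 testable endothelial and blood markers 3 rose and 2 fell. PECAM1 (3.38 ± 0.58, on 4 counts in MC) and CD34 (2.04 ± 0.37) were among the rises and KDR (-1.16 ± 0.27) among the falls. Of 6 testable neural markers 4 rose and 0 fell, led by PAX6 at 1.70 ± 0.21. With MC replicate 1 alone the trophectoderm, endothelial and neural counts were the same, and of 5 testable hypoblast markers 2 rose and 0 fell. Whether such cells were present, and their part in the results, was not tested.

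The 8 epithelial genes did not share a pattern equally. Over the 10 libraries other than MC replicates 2 and 3, the Pearson correlation of each gene's log2 CPM with the mean of the other 7 was 0.966 for EPCAM, 0.951 for ESRP1, 0.927 for ST14, 0.864 for CDH1, 0.838 for ESRP2, 0.764 for SPINT1, 0.605 for GRHL2 and -0.31 for SPINT2. These points share libraries, and MC replicate 1 is the only MC library among them. In the whole table, the 8 genes nearest to the mean pattern of the members by the same measure included SLC44A4 (r = 0.979), LCK (r = 0.969), CCDC88B (r = 0.968), DSP (r = 0.968), SCNN1A (r = 0.965), F11R (r = 0.965) and TMEM132B (r = 0.965).

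Among these, DSP (desmoplakin), the plaque protein of desmosomes, averaged 136 CPM in 1/7MC+Pyr+FGF, 221 in 1/7MC+Pyr, 171 in 1/7MC and 429.6 in MC, and F11R, a tight junction adhesion molecule, averaged 11.2, 16.3, 12.1 and 30.9 CPM in the same groups. LCK, a kinase best known from T cells, averaged 5.20, 7.91, 7.22 and 23.6 CPM in them. Each of these 3 had the order of EPCAM and ESRP1, lowest in 1/7MC+Pyr+FGF and highest in MC; they were picked for their likeness, so this is a description.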

How the data were processed

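Per the labels, the library kit (NEBNext Ultra) took poly-A RNA; whether strand was kept is not stated, which leaves overlapping or antisense genes uncertain. The tools, per the submitters' processing notes, were HISAT2 2.1.0, featureCounts, Subread 2.0 and fastp 0.19.7, with build bosTau9; the annotation is not given in the sources used here. The authors deposited whole-number counts per gene, not normalized. A second table the authors deposited as TPM holds a signal that is no TPM: it equals count over length times 4.94 in every library. Rescaled to 1000000 per library it gave per-length levels, and it served as an alternative only. Gene lengths were deposited in the same table.

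Of 19285 entries, 400 sharing an identifier were left out (1.07% to 1.40% of counts); symbols came from an ARS-UCD2.0 gene table, another build, so no coordinates are given. Differences were tested with edgeR 4.0.16 (TMM factors 0.968 to 1.04, filterByExpr, quasi-likelihood F test, all 12 libraries, Benjamini-Hochberg over 13920 genes, threshold 0.05). The SE is the fold change over the square root of F. The fit with MC replicate 1 alone (10 libraries, 14361 genes) assumes that this library varies like the other groups. The code was run on counts simulated from the same model with known changes. That checks the code, not whether the model holds for these libraries. No 2 libraries of a group had over 0.787% of genes with equal counts. R was 4.3.3, limma 3.58.1, DESeq2 1.42.0, Python 3.11.15 and matplotlib 3.10.9.

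The members, the 11 gene lists and the rules were chosen with earlier results of these data known. Named from each list were at most 4 called genes with the largest change in 1/7MC against MC, with the catenins, PRSS8, GRHL1 and GRHL3 added; the correlated genes are the top 8 of the table. GRHL1 and GRHL3 were added after their values were seen. Promoter sequences were not used here. Some genes that the rule picks are not reported here.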

Additional observations from a re-analysis of the deposited data

How the results depend on the processing

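In 1/7MC against MC, 1/7MC+Pyr against MC and 1/7MC+Pyr+FGF against MC the number of epithelial identity genes called stayed at 7, 6 and 6 when each library was left out in turn. It ran from 2 to 4 in 1/7MC+Pyr against 1/7MC, in 1/7MC+Pyr+FGF against 1/7MC from 1 to 4, and in 1/7MC+Pyr+FGF against 1/7MC+Pyr from 2 to 4. Over all genes the calls ran from 5001 to 6953 in 1/7MC against MC (6268 with all libraries), 2571 to 5151 in 1/7MC+Pyr against MC (3949), 3015 to 5337 in 1/7MC+Pyr+FGF against MC (4527), 1423 to 3137 in 1/7MC+Pyr against 1/7MC (2525), 2697 to 4579 in 1/7MC+Pyr+FGF against 1/7MC (3842) and 127 to 736 in 1/7MC+Pyr+FGF against 1/7MC+Pyr (384). Of 1056 alternative values of the 8 genes, 1003 kept direction and call, 25 lost the call, 11 gained it and 17 changed sign.

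With MC replicate 1 alone 3438, 1394 (942 rose, 452 fell) and 1723 genes were called in 1/7MC, 1/7MC+Pyr and 1/7MC+Pyr+FGF against MC. With the deposited signal as it stands, under limma, 3877 (2557 rose, 1320 fell), 1550 and 2203 (1536 rose, 667 fell) were called in the same comparisons, 1234 (215 rose, 1019 fell) in 1/7MC+Pyr against 1/7MC, 1705 in 1/7MC+Pyr+FGF against 1/7MC and 66 (40 rose, 26 fell) in 1/7MC+Pyr+FGF against 1/7MC+Pyr. That setting called 1, 1 and 0 of the 8 genes in the last 3 comparisons; its column sums differ from 66798 to 118022. With the signal rescaled, 2230 genes rose and 1267 fell in 1/7MC+Pyr against MC, and 850 rose and 2487 fell in 1/7MC+Pyr+FGF against 1/7MC. DESeq2 called 902 genes in 1/7MC+Pyr+FGF against 1/7MC+Pyr.

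The signs that changed belong to values without a call. With MC replicate 1 alone GRHL2 had -0.58 in 1/7MC against MC and -0.061 in 1/7MC+Pyr against MC, and ST14 had -0.014 in 1/7MC+Pyr+FGF against 1/7MC. With the signal as it stands SPINT2 had -0.0040 in 1/7MC+Pyr against MC and CDH1 0.051 in 1/7MC+Pyr+FGF against 1/7MC. With the signal rescaled ST14 had -0.084 in 1/7MC+Pyr+FGF against 1/7MC and SPINT2 -0.0085 in 1/7MC+Pyr+FGF against 1/7MC+Pyr. With a library left out, GRHL2 ran from -0.43 to 0.68 in 1/7MC against MC, SPINT2 from -0.053 to 0.057 in 1/7MC+Pyr against MC and -0.0029 to 0.17 in 1/7MC+Pyr+FGF against 1/7MC+Pyr, and CDH1 and ST14 from -0.24 to 0.10 and -0.13 to 0.10 in 1/7MC+Pyr+FGF against 1/7MC. The cause was not tested.

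Same-numbered libraries of different groups mostly did not deviate together (18 pairs, r from -0.32 to 0.33, 2 over 0.1). Of 12 libraries 3 correlated best with their own number. No general pairing by number was seen, but 3 libraries per group cannot exclude it. With the replicate block 181 genes were called in 1/7MC+Pyr+FGF against 1/7MC+Pyr, and the counts of the 8 genes called stayed at 7, 6, 6, 3, 4 and 3. Depth limits GRHL2 (6 to 27 counts per library) and SPINT1 (11 to 119).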
